A study of Rattus norvegicus with 8 samples.

Results

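The late sterol pathway turns farnesyl diphosphate by way of squalene into cholesterol, and 9 of its genes were followed here in rat liver: Fdft1, Sqle, Lss, Cyp51, Sc4mol, Nsdhl, Hsd17b7, Ebp and Dhcr7. They were taken by name from the array's annotation, which gave 9 genes with 18 probes out of 25512 gene names with 46883 probes. Liver samples came from male Sprague Dawley rats, an outbred laboratory strain, of 180 to 200 g by the labels. The high-fat group, 4 samples, had a diet with 60% fat for 12 weeks, and the control group, 4 samples, had a normal diet for 12 weeks. The series asks which transcripts accompany insulin resistance on a high-fat diet. Each sample was hybridised to its own 1-colour Agilent array, and the labels do not state that the samples are separate animals, so the p-values cover only how far these samples vary, which may be technical. Whether the rats were fasted and at which hour the livers were taken is not given in the sources used here.

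Cholesterol is built in the endoplasmic reticulum by a chain of enzymes whose genes share a regulator, the transcription factor SREBP-2. When membrane sterol is plentiful, SREBP-2 is held back by Scap and the Insig proteins and transcription of the chain falls, and when sterol is scarce it rises. The liver is a main site of this synthesis, and it also takes up cholesterol from food and lipoproteins. These statements are background and not results of the arrays.

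Values are normalised log2 intensities, in which 0 is an array's 75th percentile over those probes that stood well above background throughout the 8 arrays. From 50.4% (control replicate 1) to 71.9% (control replicate 4) of all probes stood well above background, with 56.3% for high-fat replicate 1, and the number of arrays limits the precision. All 18 member probes were well above background on all 8 arrays, so no member was lost to the filter on dim probes. Hepatocyte genes checked the tissue: all 8 listed (Alb, Apoa1, Apob, Ttr, Tf, Cps1, Hnf4a and Cyp2e1) were measured, with a mean level between 4.43 and 4.70 on high-fat arrays and between 4.29 and 4.62 on control arrays. In whole liver, fewer cells of a type and less RNA per cell cannot be told apart.

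On the high-fat diet 4 of the 9 genes fell, Sqle, Cyp51, Hsd17b7 and Dhcr7, and none rose. By the same rule, a limma p adjusted by Benjamini and Hochberg's method that is under 0.05, 0.877% of all genes were called, 0.527% lower and 0.35% higher. All 9 log2 changes were negative, as were 49.4% of all, and their median was -1.63, against 0.004 over all 18587 genes tested. The high-fat values lay wholly below the control values for 7 of the 9 genes, as they did for 6.25% of all genes (4.87% lay wholly above), and the same 7 had a log2 change of -1 or below, as did 1.85% of all genes. Nsdhl and Ebp were the exceptions on each count. The genes were picked as a pathway with earlier results of these data known, so the counts describe it and are no test of it.

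**Figure D1:**
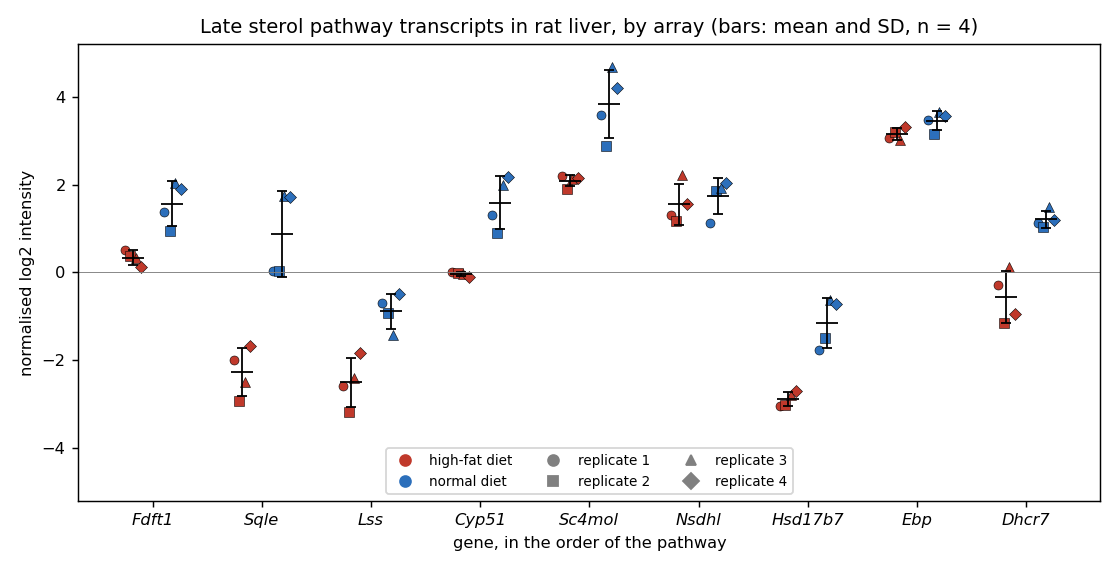
Normalised log2 intensity (vertical axis) of the 9 late sterol genes in pathway order, with high-fat arrays in red left of control arrays in blue, marker shapes for replicates, and bars for the mean and SD (n = 4 each). For 7 genes all 4 high-fat arrays lie below all 4 control arrays, while Nsdhl and Ebp overlap. Heights of different genes are from different probes and are not comparable.

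Fdft1, squalene synthase, joins farnesyl diphosphate units into squalene and commits them to sterols. Its brighter probe, at chr15:42425389-42425448 on rn4 (reverse strand), had normalised log2 intensities of 0.52, 0.38, 0.32 and 0.12 in high-fat replicates 1 to 4, against 1.38, 0.93, 2.03 and 1.91 in control replicates 1 to 4. High-fat samples lay close together and below every control sample, whose own range was wider. The log2 change was -1.23 ± 0.25 (SE), which did not pass (adjusted p = 0.064 by limma), and the other probe gave -1.20 (adjusted p = 0.18).

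Sqle, squalene epoxidase, adds oxygen to squalene to make the epoxide that is later closed into the sterol rings. It had the largest fall of the 9 genes, 8.89-fold by its brighter probe at chr7:96111693-96111752 on rn4 (forward strand). The values were -2.001, -2.924, -2.495 and -1.685 in high-fat replicates 1 to 4, against 0.02, 0.03, 1.73 and 1.71 in control replicates 1 to 4. A gap of 1.71 on the log2 scale separated the highest high-fat sample from the lowest control sample, and the controls themselves split into a lower and a higher pair. The log2 change was -3.15 ± 0.48 (SE), with a 95% interval from -4.25 to -2.06 (adjusted p = 0.034 by limma). Only 8 of 18587 genes had a lower log2 change.

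The other Sqle probe, shown here because the fall is carried by both, and the mapped Nsdhl probe, shown because that gene overlapped between the diets, have these sequences as given by the array files, 5′ to 3′, each 60 bases long:
Sqle: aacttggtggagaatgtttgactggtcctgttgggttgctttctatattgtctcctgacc
Nsdhl: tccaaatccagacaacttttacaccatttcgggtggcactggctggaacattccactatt
By the printed Sqle probe the log2 change was -2.57 ± 0.43 (SE; adjusted p = 0.042 by limma), with high-fat values between -3.09 and -2.43 and control values between -1.09 and 0.67.

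Lss, lanosterol synthase, folds epoxidised squalene into lanosterol, the first sterol of the chain. Its probe at chr20:12507646-12507705 on rn4 (reverse strand) had values of -2.59, -3.18, -2.40 and -1.83 in high-fat replicates 1 to 4, against -0.71, -0.93, -1.42 and -0.50 in control replicates 1 to 4. No high-fat sample reached the lowest control sample. With a log2 change of -1.61 ± 0.30 (SE) the gene did not pass (adjusted p = 0.055 by limma), nor did its other probe at -1.41 (adjusted p = 0.065).

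Cyp51, the cytochrome P450 that removes a methyl group from lanosterol, fell by both probes. By the probe that stands for the gene, which the files leave unmapped, the values were 0.01, -0.01, -0.05 and -0.10 in high-fat replicates 1 to 4, against 1.30, 0.89, 1.99 and 2.18 in control replicates 1 to 4. The high-fat samples were nearly equal, with an SD of 0.05, while the control samples had an SD of 0.60. The log2 change was -1.63 ± 0.27 (SE; adjusted p = 0.042 by limma). The probe at chr4:26771049-26771108 on rn4 (forward strand) gave -1.76 (adjusted p = 0.034 by limma), with a gap of 1.17 between the groups.

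Sc4mol, now named Msmo1, is the methylsterol monooxygenase that begins the removal of methyl groups at the fourth carbon of the sterol ring. Its probe at chr16:26716174-26716233 on rn4 (forward strand) had values of 2.20, 1.91, 2.12 and 2.14 in high-fat replicates 1 to 4, against 3.58, 2.87, 4.67 and 4.19 in control replicates 1 to 4. Again the high-fat samples were close together (SD 0.13) and the control samples spread out (SD 0.78). The log2 change of -1.74 ± 0.35 (SE) did not pass (adjusted p = 0.063 by limma), with -1.59 by the other probe (adjusted p = 0.077).

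Nsdhl, a sterol dehydrogenase that acts with Sc4mol in the same demethylation, overlapped fully between the diets. Its values were 1.30, 1.16, 2.21 and 1.56 in high-fat replicates 1 to 4, against 1.12, 1.85, 1.93 and 2.02 in control replicates 1 to 4. The highest and the second-lowest level came from high-fat samples, and the lowest from a control sample. Its log2 change was -0.18 with a 95% interval from -0.82 to 0.46 (adjusted p = 0.83 by limma), so a fall of up to 0.82 on the log2 scale lies within the interval. The printed probe, at chrX:158954224-158954283 on rn4 (forward strand), gave -0.24 with an interval from -0.99 to 0.51.

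Hsd17b7, the keto-reductase that completes the demethylation, fell by its probe at chr13:85776080-85776139 on rn4 (reverse strand). High-fat replicates 1 to 4 had values of -3.03, -3.01, -2.80 and -2.70, against -1.77, -1.503, -0.64 and -0.72 in control replicates 1 to 4. All high-fat samples lay below all controls by at least 0.92. The log2 change was -1.73 ± 0.27 (SE), or 3.31-fold (adjusted p = 0.036 by limma), whereas the dimmer, unmapped probe gave -1.18 and did not pass (adjusted p = 0.12).

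Ebp, emopamil binding protein, is the isomerase that shifts a ring double bond. The probe at chrX:26337475-26337534 on rn4 (forward strand) had values of 3.06, 3.20, 3.01 and 3.31 in high-fat replicates 1 to 4, against 3.46, 3.16, 3.65 and 3.57 in control replicates 1 to 4. Control replicate 2 lay within the high-fat range, and the other 3 controls lay above it. The log2 change was -0.31 with a 95% interval from -0.65 to 0.03 (adjusted p = 0.36 by limma), and the other probe gave -0.36 (adjusted p = 0.30). By the files' coordinates Ebp and Nsdhl, the 2 genes whose diets overlapped, are also the members that lie on chromosome X.

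Dhcr7 reduces the last double bond on the way to cholesterol in a branch of the pathway. By the probe that stands for it, unmapped in the files, the values were -0.28, -1.15, 0.13 and -0.94 in high-fat replicates 1 to 4, against 1.12, 1.04, 1.49 and 1.18 in control replicates 1 to 4. Here the high-fat samples were the more variable ones (SD 0.59, against 0.20 in controls). The fall was 3.40-fold, a log2 change of -1.77 ± 0.28 (SE; adjusted p = 0.038 by limma), and the probe at chr1:204258565-204258624 on rn4 (forward strand) gave -1.70 (adjusted p = 0.039 by limma).

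**Figure D2:**
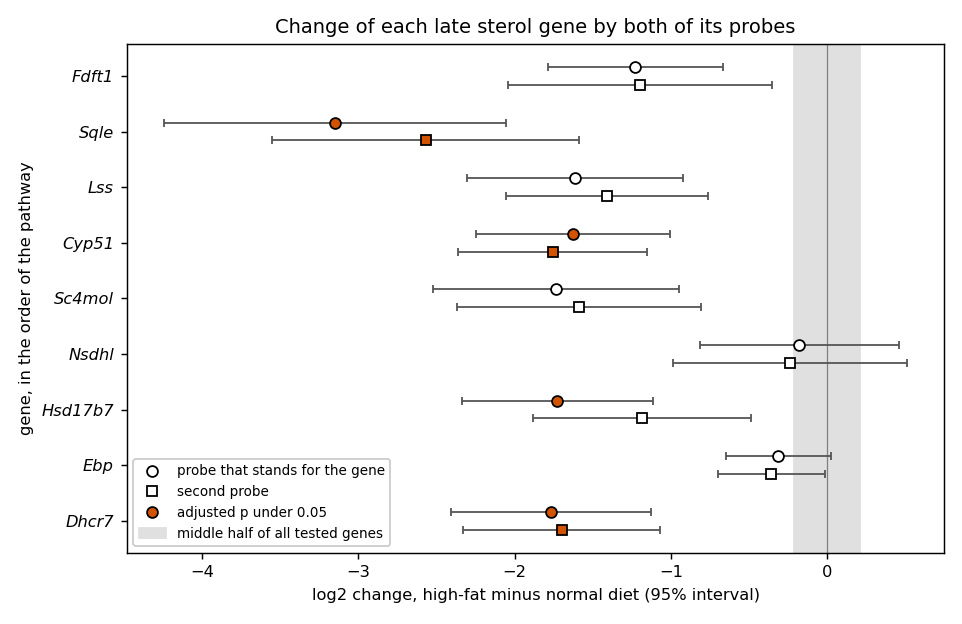
Log2 change, high-fat minus control (horizontal axis), with 95% intervals for both probes of each gene, in pathway order from top to bottom. Filled symbols passed an adjusted p under 0.05, and the grey band spans the middle of all tested genes, from the lower quartile at -0.21 to the upper quartile at 0.21. The intervals of 7 genes lie left of the band by both probes, and those of Nsdhl and Ebp reach it.

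Both probes of each gene had a negative log2 change. Their log2 changes differed by between 0.03 (Fdft1) and 0.58 (Sqle), and 7 of the 18 probes passed, all lower, where 0.907% of all probes were called, 0.53% lower. High-fat values lay wholly below control values for 14 of the 18 probes, against 5.46% of all probes. Probes of a gene read the same RNA, so they repeat the measurement and not the animals. Sqle, Cyp51 and Dhcr7 passed by both probes, and Hsd17b7 by its brighter probe only.

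Leaving out any array lowered the number of calls, while the direction of each member was kept. Without high-fat replicate 1, 2 or 4, or control replicate 3 or 4, 0 members passed by limma (7 were lower at an unadjusted p under 0.05 in each of these fits, as were 6.66% to 8.12% of all genes), without high-fat replicate 3 only Dhcr7 did, without control replicate 1 Sqle and Hsd17b7 did, and without control replicate 2 Cyp51 and Sc4mol did. In these 8 fits the log2 change of Sqle stayed between -3.44 and -2.87, that of Cyp51 between -1.86 and -1.43, that of Hsd17b7 between -1.93 and -1.55 and that of Dhcr7 between -1.996 and -1.57. With the spread modelled against intensity (limma's trend and robust options), 7 members fell, the 4 above with Fdft1 (adjusted p = 0.034), Lss (adjusted p = 0.030) and Sc4mol (adjusted p = 0.034).

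Control samples differed among themselves, and for most of the genes the difference followed the row of the slide. All 8 arrays lay on the same slide. Row 1 held replicates 1 and 2 of both diets and row 2 held replicates 3 and 4. Among controls, row 2 was above row 1 by 1.70 on the log2 scale for Sqle, by 1.21 for Sc4mol, by 0.99 for Cyp51, by 0.96 for Hsd17b7 and by 0.82 for Fdft1. For Lss the control difference was -0.14. The median over the 9 genes was 0.82 in controls, against -0.006 over all genes, and 0.27 over the 9 genes on high-fat arrays.

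Within row 1 the high-fat samples lay below both controls for 7 of the 9 genes, against 22.3% of all genes, and within row 2 for 8, against 22.9% of all genes, each with 2 arrays a diet. With slide row as a block Sqle, Cyp51 and Hsd17b7 passed by limma and Dhcr7 did not (adjusted p = 0.0504). Sqle had a log2 change of -2.49 in row 1 and -3.81 in row 2, Cyp51 -1.09 and -2.16, Sc4mol -1.17 and -2.30, and Fdft1 -0.71 and -1.75 in the same order. Dhcr7 had nearly the same change in row 1 (-1.79) and row 2 (-1.74), and Lss had -2.07 in row 1 and -1.16 in row 2. The interaction of diet and row, a fit chosen after the control values were seen, passed for none of the members (lowest adjusted p = 0.76 by limma) and for 0 of all genes. At an unadjusted p under 0.05 stood 5 of the 9 members, Fdft1, Sqle, Cyp51, Sc4mol and Hsd17b7, each with the more negative change in row 2, and 971 of all genes (5.22%). Slide row and the samples placed in it cannot be told apart.

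**Figure D3:**
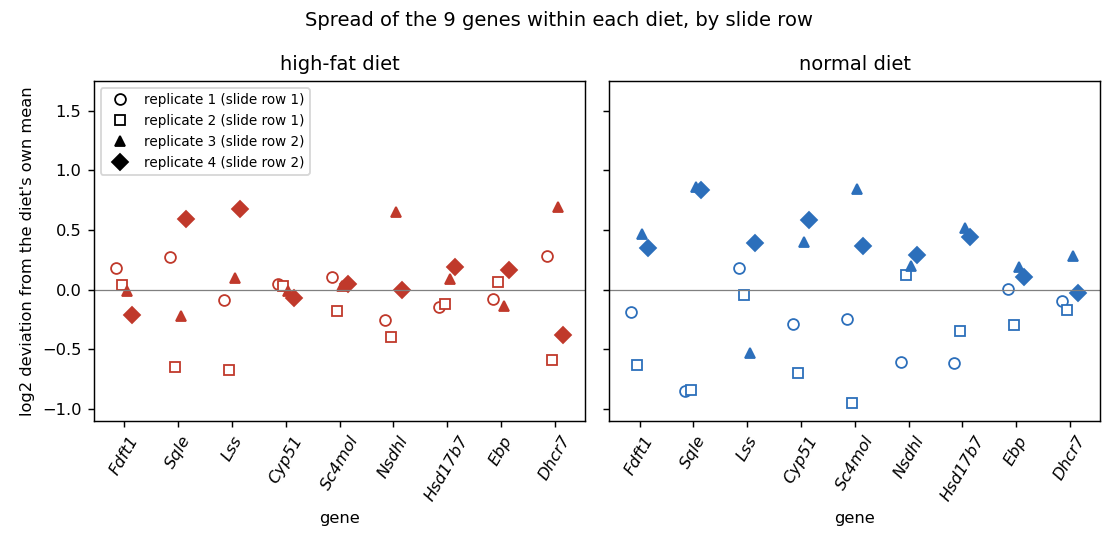
Deviation of each sample from the mean of its own diet (vertical axis, log2) for the 9 genes, with high-fat arrays on the left and control arrays on the right. Open symbols are slide row 1 and filled symbols slide row 2. Control arrays of row 2 lie above those of row 1 for most genes, by 1.70 for Sqle, while Lss does not show this order.

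The spread was uneven between diets. The median SD of the 9 genes was 0.16 among high-fat samples and 0.51 among control samples, where the medians over all genes were 0.26 and 0.26. Control samples were the more variable ones for 6 of the 9 genes, and high-fat samples for Lss, Nsdhl and Dhcr7.

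Deviations within a diet were compared between the genes. Over the 36 pairs of members, the correlation of deviations from the diet means across 8 arrays had a median of 0.40 and was above 0 in 31 pairs. The same was not computed over pairs of all genes, so whether the members moved together more than other genes was not tested. Fdft1 and Cyp51 were closest (r = 0.95), and Fdft1 and Lss were farthest apart (r = -0.28). Among 13360 other named genes, the ones closest to the mean profile of the members in these deviations were Txnrd3, a thioredoxin reductase (r = 0.98), Rbm7, an RNA-binding protein (r = 0.98), Dlx4, a homeobox factor (r = 0.98), Gins1 of the replication machinery (r = 0.97) and Idi1, isopentenyl diphosphate isomerase of the mevalonate pathway (r = 0.97). These correlations describe the 8 arrays, which share the slide rows above, and Idi1 alone of these 5 genes had a negative log2 change.

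Promoter sequence is shown for the members whose contrast matters most, since SREBP-2 is known to act beside the factor NF-Y, which reads the motif CCAAT. Of the 9 members, 7 matched the RefSeq promoter table (build GRCr8), Sc4mol under the name Msmo1, and Fdft1 and Sqle did not. The window used is the 250 bases before the annotated start. Sc4mol and Hsd17b7 are printed as genes with lower values and several such motifs, Cyp51 as a gene that fell and has none, and Nsdhl and Ebp as the genes that overlapped. Capitals mark CCAAT on either strand (ATTGG where it runs in reverse) and, in Ebp, a match to CACNCCAC, a short form of the sterol regulatory element. Coordinates are chr16:29746863-29747112 for Sc4mol, chr4:30991443-30991692 for Cyp51, chrX:155817110-155817359 for Nsdhl and chrX:16971212-16971461 for Ebp, all on the forward strand, and chr13:84722755-84723004 for Hsd17b7 on the reverse strand. Each reads 5′ to 3′ towards its gene:
Sc4mol: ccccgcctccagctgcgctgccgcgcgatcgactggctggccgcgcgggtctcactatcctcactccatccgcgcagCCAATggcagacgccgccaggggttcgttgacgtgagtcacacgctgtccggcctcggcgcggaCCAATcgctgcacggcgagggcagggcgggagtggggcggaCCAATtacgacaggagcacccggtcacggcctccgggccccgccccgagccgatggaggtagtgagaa
Hsd17b7: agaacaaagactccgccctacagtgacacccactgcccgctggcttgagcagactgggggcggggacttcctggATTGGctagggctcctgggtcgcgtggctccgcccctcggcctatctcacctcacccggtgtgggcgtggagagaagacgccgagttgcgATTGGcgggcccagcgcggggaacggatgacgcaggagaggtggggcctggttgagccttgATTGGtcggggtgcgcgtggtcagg
Cyp51: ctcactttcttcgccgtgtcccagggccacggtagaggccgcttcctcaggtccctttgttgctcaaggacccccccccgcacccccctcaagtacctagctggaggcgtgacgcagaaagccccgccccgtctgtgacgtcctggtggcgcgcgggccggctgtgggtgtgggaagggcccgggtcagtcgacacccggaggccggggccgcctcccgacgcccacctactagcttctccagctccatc
Nsdhl: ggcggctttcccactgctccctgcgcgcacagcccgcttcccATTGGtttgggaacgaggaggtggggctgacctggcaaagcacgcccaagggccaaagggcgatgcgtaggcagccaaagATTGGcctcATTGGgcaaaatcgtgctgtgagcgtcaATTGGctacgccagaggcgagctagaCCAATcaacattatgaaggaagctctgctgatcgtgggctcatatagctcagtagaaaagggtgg
Ebp: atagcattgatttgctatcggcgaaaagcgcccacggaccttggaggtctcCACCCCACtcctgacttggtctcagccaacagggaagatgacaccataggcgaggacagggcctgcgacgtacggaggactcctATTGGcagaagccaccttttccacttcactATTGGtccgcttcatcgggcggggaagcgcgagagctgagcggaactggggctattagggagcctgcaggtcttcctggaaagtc

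CCAAT, read on both strands, was found in 5 of the 7 matched members, against 34.0% of 33469 promoters of the same length. It occurred 5 times before Nsdhl, 3 times each before Sc4mol and Hsd17b7, 2 times before Ebp, once before Lss, and not before Cyp51 or Dhcr7. Whether these counts go with the log2 changes was not tested, and Sqle and Fdft1 had no window to read. TCACNCCAC, a longer form of the sterol regulatory element that contains CACNCCAC, was in none of the 7 windows and in 0.974% of all. CACNCCAC was in the Ebp window and in 4.89% of all. GGGCGG, the box read by Sp1, was in 6 of the 7 (all but Nsdhl) and in 30.5% of all promoters. A match is a description of letters and not of binding, and the motif counts were read in a single window length.

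Other genes of cholesterol handling put the 9 beside their neighbours in the pathway. Of the early mevalonate genes, all 9 listed were tested, and 7 had an unadjusted p under 0.05 by limma, as did 15.6% of all genes. The median log2 change of the 9 was -1.43. By adjusted p 3 fell and none rose, where over all genes 0.527% were called lower and 0.35% higher. The 3 were Pmvk, phosphomevalonate kinase, at -1.59 ± 0.20 (SE; adjusted p = 0.018 by limma), Idi1 at -2.13 ± 0.36 (adjusted p = 0.043) and Fdps, farnesyl diphosphate synthase, which makes the substrate of Fdft1, at -2.10 ± 0.38 (adjusted p = 0.049).

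Enzymes of the late steps outside the 9 gave no call by limma, and 2 had an unadjusted p under 0.05, as did 15.6% of all genes. Of 4 listed, 3 were tested, among them Tm7sf2, a sterol reductase, at -1.54 (adjusted p = 0.13 by limma), and the desaturase Sc5dl at -0.31 (adjusted p = 0.31). Of the 7 genes of sterol sensing and uptake, 4 had an unadjusted p under 0.05 by limma, in either direction. By adjusted p 1 of the 7 fell, where 0.527% of all genes were called lower. It was Srebf2, which encodes SREBP-2, at -0.82 ± 0.15 (SE; adjusted p = 0.049 by limma). Its mean was -0.49 ± 0.21 in high-fat samples and 0.33 ± 0.14 in control samples (SD, n = 4 each). Scap, the escort of SREBP-2, did not pass at a log2 change of -0.36 (adjusted p = 0.31). Genes of sterol disposal, 7 tested, had a median of -0.19 and 0 calls by limma, 0 of them with an unadjusted p under 0.05. No difference between these groups of genes was tested.

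**Figure D4:**
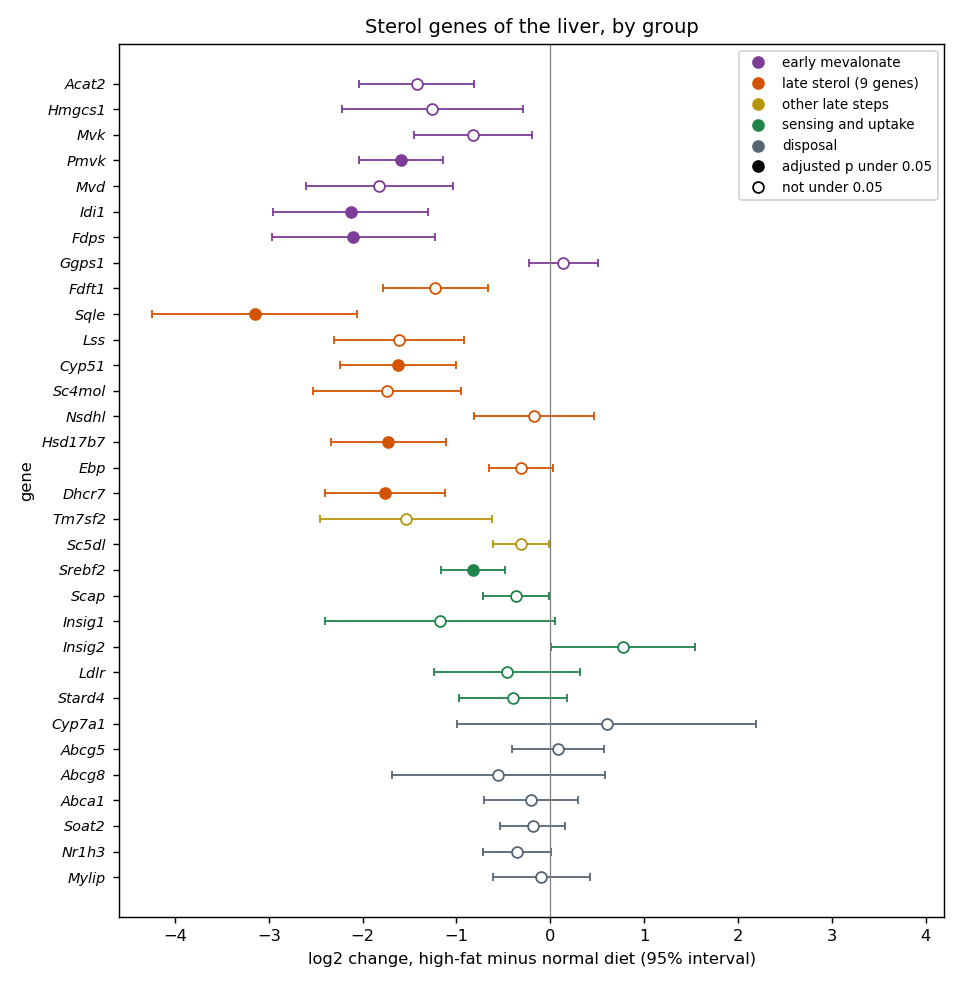
Log2 change, high-fat minus control (horizontal axis), with 95% intervals for tested genes of 5 sterol groups, from early mevalonate at the top to disposal at the bottom. Filled symbols passed an adjusted p under 0.05: Pmvk, Idi1 and Fdps, then Sqle, Cyp51, Hsd17b7 and Dhcr7, then Srebf2.

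Markers of other cells and of the clock were read beside the sterol genes. Erythroid markers, 4 of 6 tested, had a median log2 change of 1.09, and their mean level was 1.29 to 1.501 on high-fat arrays and -0.02 to 1.11 on control arrays. Clock genes, which follow the hour of day, had a median of 0.56 over 14 tested (0.21 after normexp background correction), 2 of the 14 being negative. Their mean level was -3.25 to -2.79 on high-fat arrays and -3.65 to -3.29 on control arrays. The median of this list does not tell the hour. Kupffer cell markers had a median of -0.26 over 7 tested, all negative, with -0.43 to 0.68 on high-fat arrays and 0.43 to 1.15 on control arrays. No gene of these 3 lists passed by limma. At an unadjusted p under 0.05 stood 3 erythroid and 5 clock genes, all higher on the high-fat diet, and 3 Kupffer genes, all lower. Over all genes the share was the same 15.6%, and the part of these 3 lists in the sterol result was not tested. Lymphocyte markers had a median of -0.25 over 7, of which 5 were negative, while Cd3e was at 0.02 and Cd79b at 0.31. By adjusted p 1 fell, the T-cell receptor gene Cd3g, named after its values were seen, at -1.44 (adjusted p = 0.042 by limma). Of these 7 markers 3 had an unadjusted p under 0.05, and over all genes 0.527% were called lower. Of 4 exocrine pancreas markers none reached the filter, and stellate (-0.01), endothelial (0.15), adipocyte (-0.24) and cholangiocyte (-0.61) lists had the median log2 changes given, with no call by limma and 1, 3, 0 and 1 genes at an unadjusted p under 0.05 in that order. The 8 hepatocyte genes had a median log2 change of -0.03, 4 of the 8 being negative, and gave no call either. At an unadjusted p under 0.05 by limma stood 2 of them, Cps1, with a log2 change of 0.98, and Cyp2e1, with 0.88.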

How the data were processed

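The members and gene lists were chosen with earlier results of these data known. Per the labels' protocols, labelling with Cy3 started from 500 ng of RNA and an oligo-dT primer. Per the file headers, the deposited intensity values were background-subtracted and detrended within each array by Agilent's software Feature Extraction (version 10.7.3.1), on a probe design with coordinates on rn4. The authors' deposited log2 table, whose scaling is not given in the sources used here, had a correlation of at least 0.999 with the scanner values of each array and medians between -3.21 and -3.10, and its higher values were brighter spots with no centring per probe.

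Control spots and outlier flags were left out, spots of a probe were averaged, and no spot was saturated. The 31535 probes well above background in at least 4 arrays entered limma 3.58.1 (lmFit, eBayes) in R 4.3.3, diet as the only term, with Benjamini-Hochberg adjustment over these probes and a threshold of 0.05. Each gene is given by its brightest tested probe on average. The fit was tested on simulated data with independent noise for each probe and equal spread in both diets. Such data hold no slide-row difference, so they do not cover the row and spread patterns described above. Every member was named, and from each sterol list at most the 3 genes of smallest p, apart from Cd3g, and some genes of these lists are not reported here. RefSeq tables gave promoters only. Slide row, each array left out, background correction, scaling, filter, probe summary, variance model, weights and replicate block were varied. All arrays shared a slide and a scan day.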

Additional observations from a re-analysis of the deposited data

How the results depend on the processing

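Members kept a negative log2 change in all 22 alternatives, and no change was reversed. The median over the members was between -1.82 and -1.48 when 1 array was left out, -1.17 within slide row 1 and -1.75 within slide row 2. Their calls were less steady, with 4 of 9 genes lower as reported. After normexp 7 passed, with all 8 arrays required above background 7, and with trend and robust spreads 7, while without the filter on dim probes, with the replicate block, within slide row 1, within slide row 2 and without the dimmest array of each diet (replicate 1 of both) 0 passed by limma, 7 being lower at an unadjusted p under 0.05 in each of these 5 fits, as were 4.11% to 7.19% of all genes. Leaving out 1 array gave 0 to 2. Over the whole array 163 genes were called as reported. That number was 253 after normexp, 331 with all 8 arrays above background (fewer probes enter the adjustment), 335 with trend and robust spreads, 98 with slide row as a block (3 members, without Dhcr7), 14 without the dimmest arrays, 5 without the filter, 1 with the replicate block, 0 by limma within either slide row (2 arrays a diet, with 1454 genes in row 1 and 2255 in row 2 at an unadjusted p under 0.05), and 16 to 89 with 1 array left out. The cause of these differences was not tested, also where fewer probes or arrays entered a fit. The call of Sqle and of Cyp51 was lost in 12 alternatives each and that of Hsd17b7 and of Dhcr7 in 13, with adjusted p by limma up to 0.35, 0.48, 0.41 and 0.45. Fdft1 passed in 3 alternatives, Lss in 4 and Sc4mol in 4. Same-numbered deviations correlated at -0.12, 0.26, 0.23 and 0.01, and 1 of the 4 pairs was the best match. So few pairs cannot decide whether replicate numbers pair the samples. A sample standing apart from its group was found in 0 of 38 sets of 4 member values.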
